A study of Mus musculus with 8 samples.

Results

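The genes described here in peritoneal mast cells (PMCs) are Rnase6, Tmem233, Vill, Agap1 and Tek. They are 5 of the 55359 genes in the deposited count table and were chosen because their RNA was far lower, or most evenly lower, in both PMC lines than in primary WT PMCs. RNA sequencing covered 8 untreated cultures of wild-type C57BL/6x129/Sv mice, namely 1 library each of the lines PMC-303 and PMC-306 and 6 libraries of primary PMCs, 3 from female and 3 from male mice. The lines arose without any deliberate manipulation in old, neglected PMC cultures, and each is a single line with a single library. They were fed with less serum and less stem cell factor (SCF) than the primary cultures, so that in these libraries transformation and medium cannot be told apart. The paper also grew PMC-306 with the serum and SCF of primary cultures. It found the RNA of Cdkn2a, Arf, Mrgprb2 and several proteases, Mcpt2 among them, unaltered. It gives no such values for the 5 genes described here. The primary cultures were kept for a limited number of weeks, and the age of the mice is not given in the sources used here.

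Mast cells are long-lived tissue cells of the haematopoietic lineage that store proteases and histamine in granules and depend on the receptor KIT and its ligand SCF. The 5 genes belong to different families. Rnase6 encodes RNase k6, a secreted antimicrobial ribonuclease of the RNase A superfamily. Tmem233 encodes a small membrane protein of the CD225 (dispanin) family, to which the interferon-induced Ifitm proteins also belong. Vill encodes villin-like protein, a relative of the actin-severing proteins gelsolin and villin. Agap1 encodes a GTPase-activating protein for ARF, the small GTPases of vesicle traffic, and acts together with the adaptor complex AP-3. Tek encodes TIE2, the receptor tyrosine kinase for angiopoietins, which is best known from endothelial cells.

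All 8 libraries carried mast cell RNA. The 9 mast cell markers were found in every library, and 4 of them (Kit, Fcer1a, Il1rl1 and Anpep) were called lower in the lines by limma. Libraries held between 15918757 and 24180226 counts, and levels are given as CPM, that is counts relative to the library size after TMM scaling of the sizes. Markers of granulocytes, lymphocytes, fibroblasts and mesothelium, 19 genes, reached at most 0.344 CPM in any library. The 4 Y-linked genes of the marker list stood in PMC-303 at between 0.977% and 1.55% of their mean in the male primary cultures, and those values are set beside the low levels of PMC-303 further on. Where a gene had no count, 3 counts were taken as a limit, equal to 0.123 CPM for PMC-303 and to 0.147 CPM for PMC-306. These limits and all intervals of single libraries cover counting error only.

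The sequences before the start sites are shown for Tmem233 and Vill, which were almost absent from the lines, with 250 bases before the first annotated start in the group of starts that carries most counts (GRCm39, strand of the gene, from the reference genome). The first annotated Tmem233 start is position 116221356 of chromosome 5 on the minus strand, and its window is chr5:116221357-116221606. The transcript that carried nearly all Tmem233 counts starts 53 bases further downstream, at position 116221303. The Vill window, chr9:118892266-118892515 on the plus strand, lies inside the gene, before the internal start that carried most Vill counts in the primary cultures. Capitals mark a TGATAA element in the Tmem233 window and, in the Vill window, a coding exon of 136 bases of the long Vill transcripts.
Tmem233: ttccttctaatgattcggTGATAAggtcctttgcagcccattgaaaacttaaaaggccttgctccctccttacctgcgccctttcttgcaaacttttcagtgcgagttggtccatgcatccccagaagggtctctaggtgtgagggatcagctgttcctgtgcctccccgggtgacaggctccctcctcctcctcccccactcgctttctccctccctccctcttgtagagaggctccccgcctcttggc
Vill: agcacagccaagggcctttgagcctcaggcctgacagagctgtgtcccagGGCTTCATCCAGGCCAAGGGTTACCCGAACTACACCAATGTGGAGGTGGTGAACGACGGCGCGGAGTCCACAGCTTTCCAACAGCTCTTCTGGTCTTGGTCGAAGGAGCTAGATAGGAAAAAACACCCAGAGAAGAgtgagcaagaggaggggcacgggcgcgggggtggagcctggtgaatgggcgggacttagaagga

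In the windows of Tmem233, Vill, Agap1 and Tek 8 short motifs were searched on both strands. For GATA factors these were AGATAA as well as the related form TGATAA, and for MITF and other E-box factors CACGTG as well as the related form CATGTG. For AP-1 the motif TGANTCA was used and for ETS factors GGAAGT. RUNX factors were represented by TGTGGT. For STAT factors the spaced motif TTCNNNGAA was searched. The TGATAA element, which begins 232 bases before the first annotated Tmem233 start, was the only match in these 4 windows. It begins 285 bases before the start of the transcript that carried the counts, and so lies outside the 250 bases next to that start. The motif was present in 6.56% of the 14491 windows of tested genes. The other 7 motifs were present in between 5% and 19.3% of all windows, and their absence here says only that these letters do not occur in 250 bases. Gata2, the GATA factor among the mast cell markers, stood at 582 CPM in PMC-303 and at 662 CPM in PMC-306, beside primary levels of 495 to 600 CPM. Other GATA factors were not examined. The windows differ widely in base composition, with 46.0% G and C for Tek (lower in 22.8% of all windows) and 73.2% for Agap1 (lower in 95.9%).

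Rnase6 RNA was abundant in the primary cultures and almost absent from both lines. In female cultures 1 to 3 it stood at 167, 94.7 and 30.2 CPM and in male cultures 1 to 3 at 186, 176 and 68.3 CPM. PMC-303 had 1.15 CPM (28 counts) and PMC-306 had 0.0491 CPM (1 count). Both lines lay below every primary culture, and the lowest culture, female 3, was still 26.2 times as high as PMC-303. Against the mean of the primary cultures, 120 CPM ± 64.9 (SD, n = 6), 0.957% was left in PMC-303 (95% exact Poisson interval of the count 0.636% to 1.38%) and 0.0408% in PMC-306 (0.00103% to 0.227%). As the 5 genes were chosen on this contrast, these values describe them and are not tested.

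Tmem233 was left at similar levels. Female cultures 1 to 3 had 25.4, 126 and 144 CPM and male cultures 1 to 3 had 112, 85.0 and 77.2 CPM. The lines had the same counts as for Rnase6, 28 in PMC-303 and 1 in PMC-306, and again lay below all primary cultures. This is 1.22% of the primary mean of 94.8 CPM ± 42.1 (SD, n = 6) in PMC-303 (0.808% to 1.76%) and 0.0518% in PMC-306 (0.00131% to 0.289%). Female culture 1 was the low one here, whereas it was among the high ones for Rnase6.

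Vill was not detected in PMC-306, with 0 counts, and had 0.576 CPM (14 counts) in PMC-303. The primary cultures had 23.7, 29.3 and 98.8 CPM (female 1 to 3) and 21.9, 25.1 and 12.4 CPM (male 1 to 3). Female culture 3 stood far above the other 5, and it was the culture with the lowest Rnase6. With the primary mean of 35.2 CPM ± 31.6 (SD, n = 6), Vill was at least 239-fold lower in PMC-306, against 3 counts in that library, and 1.64% was left in PMC-303 (0.895% to 2.75%). Without female culture 3 the mean of the other cultures was 22.5 CPM ± 6.26 (SD, n = 5). The fold for PMC-306 at 3 counts was then 153, and 2.56% was left in PMC-303.

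Agap1 goes against a description as nearly lost, because at least 21.8% of its primary mean remained in both lines. It had 38.9 CPM (PMC-303) and 34.7 CPM (PMC-306). The primary cultures were close together, at 158, 168 and 168 CPM (female 1 to 3) and 156, 134 and 169 CPM (male 1 to 3), with a mean of 159 CPM ± 13.4 (SD, n = 6). What was left was 24.5% in PMC-303 (23.0% to 26.1%) and 21.8% in PMC-306 (20.3% to 23.5%). No library of the lines came near the primary range, and of the 5 genes Agap1 had the most even values within each set of cultures.

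Tek was low everywhere. The lines had 1 count (PMC-303, 0.0412 CPM) and 2 counts (PMC-306, 0.0982 CPM), which is under the limit that a count of 0 allows. The primary cultures had 0.505, 6.59 and 1.21 CPM (female 1 to 3) and 2.66, 2.86 and 0.157 CPM (male 1 to 3), so that male culture 3, with 3 counts, was at the level of the lines and female culture 2, with 150 counts, was 41.9 times as high. The mean was 2.33 CPM ± 2.36 (SD, n = 6). Of this mean 1.77% was left in PMC-303 (0.0447% to 9.84%) and 4.21% in PMC-306 (0.510% to 15.2%). Without female culture 2 the mean was 1.48 CPM ± 1.23 (SD, n = 5), with 2.78% left in PMC-303 and 6.64% in PMC-306. In male culture 3 the difference from the lines was not detectable at this depth.

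**Figure D1:**
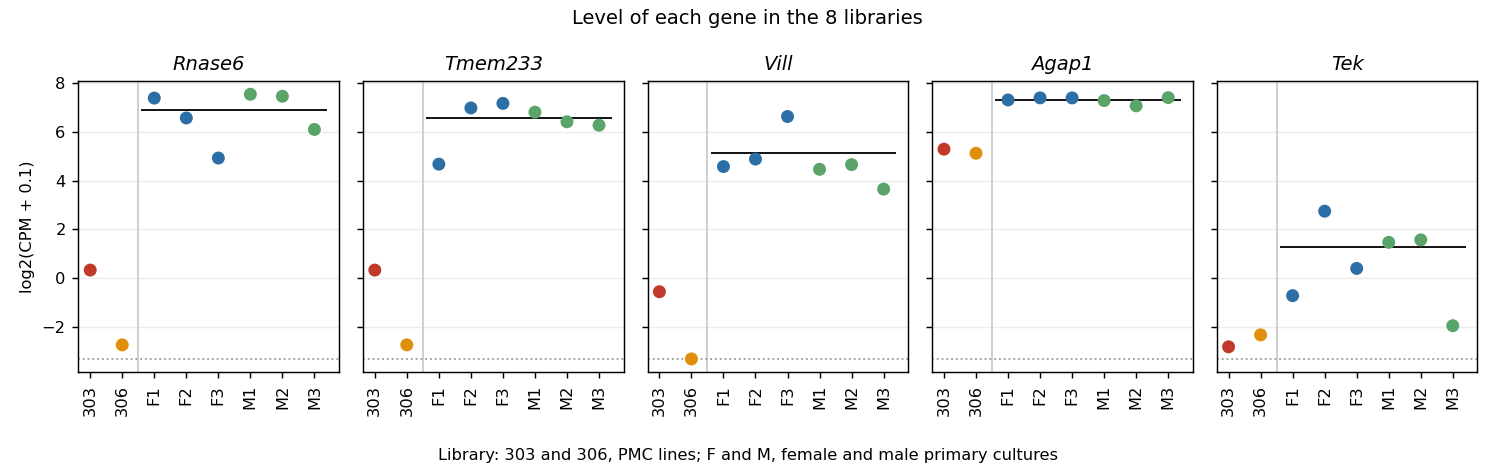
Level of each gene as log2(CPM + 0.1) in every library, with the PMC lines on the left of the grey line in each panel and the primary cultures on the right (blue, female; green, male). The black bar is the primary mean and the dotted line is a count of 0. Both lines lie far below all primary cultures for Rnase6, Tmem233 and Vill, Agap1 falls from a mean of 159 CPM to 38.9 and 34.7 CPM, and male culture 3 lies near the lines for Tek.

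All 5 genes passed the filter on low counts, and both lines lay below every primary culture for all 5. For Tek this rests on 1 and 2 counts in the lines beside 3 counts in male culture 3. Both lines lay below every primary culture for 21.7% of the 12504 genes with a primary mean of at least 1 CPM. All but Agap1, 4 of the 5, were at least 5-fold lower in each line, as were 1.82% of these genes. As the genes were chosen for this difference, the counts are given as a description only. Among the 8575 genes with a primary mean of at least 10 CPM, 27 (0.315%) had at most 5% of the mean left in both lines, and Rnase6, Tmem233 and Vill ranked 9, 11 and 14 by the level left in the line that kept more. Agap1 ranked 76. For genes of all kinds limma called 15.5% of 14529 tested genes lower in the lines and 18.3% higher.

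For 4 of the 5 genes PMC-303 kept more than PMC-306, by a small amount in the case of Agap1. The ratio of PMC-303 to PMC-306 was 23.5 for both Rnase6 and Tmem233 (95% interval from the exact binomial interval of the counts, 3.88 to 960), and for Vill its lower bound was 2.78. For Agap1 it was 1.12 (1.02 to 1.24) and for Tek 0.419 (0.00710 to 8.05), an interval that spans equal levels. With 1 library per line these intervals compare libraries. In PMC-303 Rnase6 stood at 0.803% of the mean of the male primary cultures, Tmem233 at 1.26% and Vill at 2.91%, beside 0.977% to 1.55% for the 4 Y-linked genes. Agap1 stood at 25.5%. The part that RNA of other cultures has in the low PMC-303 values was not tested.

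**Figure D2:**
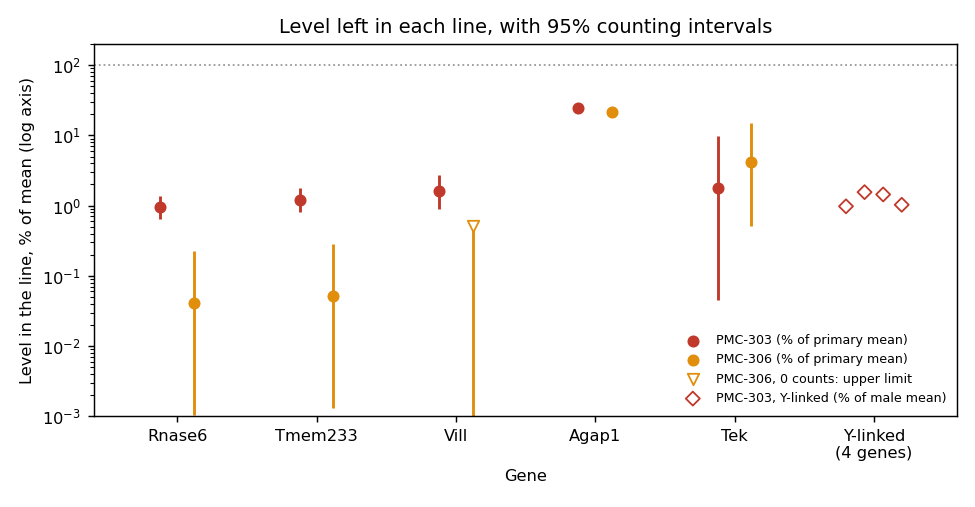
Level of each gene left in each line in percent of the mean of the 6 primary cultures, on a log axis, with 95% counting intervals as vertical lines (drawn down to the edge of the axis where they reach 0). Open diamonds are the 4 Y-linked genes in PMC-303 in percent of the male mean, and the triangle is the upper limit for the 0 Vill counts in PMC-306. Rnase6 and Tmem233 in PMC-303 stand at 0.957% and 1.22%, close to the Y-linked genes, and Agap1 stands at 24.5% and 21.8%.

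The 5 genes differed in how evenly the primary cultures expressed them. The coefficient of variation over the 6 cultures was 8.45% for Agap1, close to the median of 8.83% over the 8575 genes with a primary mean of at least 10 CPM. It was 44.4% for Tmem233, 53.9% for Rnase6, 89.9% for Vill and 101% for Tek. Only 3.03% of those 8575 genes varied more than Tmem233, 1.97% more than Rnase6 and 0.665% more than Vill. No single culture was the low or the high one throughout.

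Sex was not used in choosing the genes, and no difference between female and male primary cultures was detected for any of them. On the log2 scale the female mean minus the male mean was 1.11 for Vill (95% interval -0.22 to 2.43, unadjusted p = 0.0882 by limma), which is 50.6 CPM ± 41.8 against 19.8 CPM ± 6.57 (SD, n = 3 each). It was -0.74 for Rnase6 (-2.34 to 0.86), -0.22 for Tmem233 (-1.74 to 1.30) and 0.45 for Tek (-2.46 to 3.35). For Agap1 it was 0.11 (-0.12 to 0.34), so that a difference between the sexes of more than 0.34 lies outside its interval. The adjusted p by limma was 1.00 for all 5 genes, and 0.0438% of 13710 genes tested (6 genes, 456 at an unadjusted p under 0.05) were called between the sexes.

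Per length of transcript, in deposited TPM, Rnase6 had the highest mean of the 5 in the primary cultures, with 152 TPM ± 88.5 (SD, n = 6). In female culture 3 it stood at 41.0 TPM, below Vill (109 TPM) and Tmem233 (71.4 TPM). Tmem233 with 43.8 TPM ± 21.1, Vill with 36.9 TPM ± 36.2 and Agap1 with 27.6 TPM ± 2.13 followed and did not differ beyond their spread, and Tek had 0.596 TPM ± 0.588. In the lines the order was another. Agap1 had 7.35 TPM in PMC-303 and 7.08 TPM in PMC-306, above Rnase6 with 1.70 and 0.208 TPM.

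Rnase6 is a gene of 8.28 kb on chromosome 14 (51361365 to 51369644, plus strand), with 2 transcripts that hold the whole coding sequence of 459 bases. In the primary cultures ENSMUST00000095923, of 2 exons, took between 43.8% and 49.3% of the estimated counts and ENSMUST00000226194, which starts further upstream and has 3 exons, between 37.1% and 40.6%. In PMC-303 their shares of 28 counts were 68.8% and 16.9%. Tmem233 (chromosome 5, 116176809 to 116221356, minus strand) was carried almost entirely by ENSMUST00000111997, a transcript of 3 exons and a coding length of 330 bases, with between 95.6% and 100% of the counts in the primary cultures and all counts in both lines.

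The few Vill counts that PMC-303 kept were divided among transcripts in other shares than in the primary cultures. Vill spans 118881839 to 118900593 on the plus strand of chromosome 9. In the primary cultures between 84.4% and 90.8% of its counts were assigned to transcripts that start inside the gene, at positions 118892516 to 118892526, and the most abundant of them, ENSMUST00000141185, has 11 exons and a coding length of 1425 bases. The longest coding transcript with counts, ENSMUST00000074734 with 19 exons and a coding length of 2325 bases, had between 3.32 and 19.9 counts. In PMC-303 the transcripts with internal start had 1.43 of 14 counts, or 10.2% (95% exact binomial interval for 1 of 14 counts, 0.181% to 33.9%). Another 75.5% was assigned to ENSMUST00000153454, a non-coding transcript with a retained intron that starts at the upstream end of the gene and took between 6.94% and 12.7% in the primary cultures. Counts of overlapping transcripts are estimates by Salmon, and their uncertainty is not part of these intervals.

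**Figure D3:**
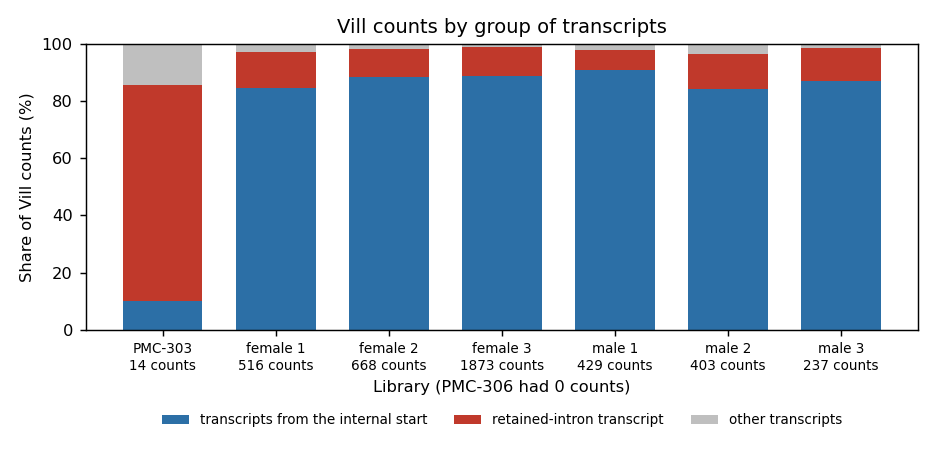
Share of the Vill counts assigned to transcripts from the internal start (blue), to the transcript with a retained intron (red) and to the other transcripts (grey), in percent, with the total count under each library. In the primary cultures blue takes between 84.4% and 90.8%, and in PMC-303, with 14 counts, it takes 10.2%. PMC-306 had 0 counts and has no bar.

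Agap1 spans 456 kb of chromosome 1 (89382425 to 89838077, plus strand). Its 4 main transcripts each had fewer estimated counts, not scaled for library size, in both lines than in any primary culture. For ENSMUST00000074945 the difference was narrow in PMC-303, with 208 counts beside 211 in female culture 1. ENSMUST00000027521, of 18 exons and a coding length of 2571 bases, took 28.2% of the Agap1 counts in PMC-303 and 30.2% in PMC-306, below the 32.6% to 40.8% of the primary cultures. ENSMUST00000074945, which starts downstream at position 89507958 and has a coding length of 3168 bases, took 22.0% in PMC-303, above the 6.13% to 14.3% of the primary cultures, and 14.2% in PMC-306. Tek lies on chromosome 4 (94627291 to 94763224, plus strand). In female culture 2, its highest library, 71.9 counts were assigned to ENSMUST00000102798 and 78.1 to ENSMUST00000071168, whose coding lengths of 3369 and 3366 bases differ by 3 bases, so that these counts cannot be divided with confidence.

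The relatives and partners of the 5 genes did not share the difference as a group. Of 84 listed genes 49 passed the filter on low counts, and limma called 8 lower and 8 higher, with a median log2 fold of 0.00 beside -0.01 for all genes tested. Over all genes 15.5% were called lower and 18.3% higher. The call numbers rest in part on both lines, since without PMC-303 5 were called higher and without PMC-306 5 were called lower.

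Rnase6 was the only ribonuclease of its superfamily above 1 CPM among those examined. The other 17 ribonucleases of the list, Rnase4 and the angiogenins and eosinophil-type ribonucleases among them, reached at most 0.124 CPM in any library and were not tested. Rnh1, the cytosolic inhibitor that binds such ribonucleases, stood at 133 CPM in PMC-303 and at 128 CPM in PMC-306, beside primary levels of 94.5 to 126 CPM, with a log2 fold of 0.25 ± 0.10 (SE) and an adjusted p of 0.0951 by limma, without a call. In the CD225 family of Tmem233 4 of 12 genes were tested. Ifitm3, an antiviral membrane protein, had 0 CPM (PMC-303) and 0.0491 CPM (PMC-306), beside primary levels of 1.10 to 4.62 CPM, and was called lower (log2 fold -4.30 ± 0.57, which depends on the added 0.1 CPM, adjusted p = 0.000799 by limma). Ifitm2 moved the other way, from between 127 and 240 CPM to 382 and 363 CPM (log2 fold 0.87 ± 0.22, adjusted p = 0.0167 by limma), a call that was lost without either line.

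Of the gelsolin and villin family 6 of 7 genes were tested, and 1 was called. Svil, which encodes the membrane-bound actin organiser supervillin, fell from between 140 and 192 CPM to 72.6 CPM (PMC-303) and 57.4 CPM (PMC-306) (log2 fold -1.24 ± 0.14, adjusted p = 0.000331 by limma). Gsn, gelsolin itself, had 863 and 591 CPM in the lines beside primary levels of 818 to 1173 CPM, without a call (adjusted p = 0.145 by limma). Capg, an actin capping protein, had 292 and 282 CPM against 264 to 339 CPM.

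For Agap1 the closest relatives did not differ by a call. Agap2 had 67.6 CPM (PMC-303) and 82.9 CPM (PMC-306) beside 64.2 to 79.4 CPM in the primary cultures, and Agap3 had 28.7 and 32.9 CPM beside 28.3 to 31.4 CPM. Over all ARF GTPase-activating proteins 20 of 22 were tested, 2 were called lower and 3 higher, with a median log2 fold of 0.05. Arap2, which also binds RhoA, rose from between 0.562 and 3.43 CPM to 27.7 and 29.0 CPM (log2 fold 4.25 ± 0.72, adjusted p = 0.00270 by limma). Acap1 rose from between 165 and 213 CPM to 253 and 250 CPM. Asap2 fell from between 0.787 and 1.94 CPM to 0.370 and 0.0491 CPM (log2 fold -2.63 ± 0.48, adjusted p = 0.00398 by limma), and Arap3 fell from between 209 and 254 CPM to 177 and 164 CPM.

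The GTPases and the adaptor complex on which AGAP1 acts moved by small amounts in both directions. Of 11 tested genes 3 were called lower and 3 higher. Arf6, the GTPase of the plasma membrane, rose to 135 and 132 CPM from between 91.9 and 105 CPM (log2 fold 0.45 ± 0.07), and Arf1, the Golgi GTPase, rose to 305 and 307 CPM from between 217 and 240 CPM (log2 fold 0.42 ± 0.07), with adjusted p of 0.00160 and 0.00189 by limma. Among the AP-3 subunits Ap3m2 fell to 19.8 and 20.6 CPM from between 29.9 and 32.05 CPM (log2 fold -0.63 ± 0.07, adjusted p = 0.000347 by limma). Ap3b1 fell to 114 and 80.6 CPM from between 125 and 146 CPM, a call that was lost without PMC-306 and with library sizes that were not scaled further.

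The ligand of TIE2 was among the abundant RNAs of these cells. Angpt1, the activating angiopoietin, stood at 520 CPM in PMC-303 and at 553 CPM in PMC-306, beside primary levels of 508 to 689 CPM, without a call (log2 fold -0.20 ± 0.12, adjusted p = 0.252 by limma). Angpt2, the context-dependent antagonist, had 0 counts in all 8 libraries. Tie1, the co-receptor, reached at most 0.187 CPM, and Ptprb, the phosphatase that acts on TIE2, at most 0.105 CPM. Of the downstream adaptors Pik3r1, a PI3K subunit, fell to 145 and 115 CPM from between 170 and 226 CPM (log2 fold -0.59 ± 0.13, adjusted p = 0.00790 by limma) and Shc1 rose to 133 and 118 CPM from between 74.7 and 98.2 CPM (log2 fold 0.51 ± 0.11, adjusted p = 0.00827 by limma). The Pik3r1 call was lost without PMC-306 and the Shc1 call without PMC-303.

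Beside Tek, the endothelial markers were near 0 with the exception of Vwf. Of 8 endothelial markers 7, Cdh5 and Kdr among them, reached at most 0.689 CPM in any library. Vwf, which encodes von Willebrand factor, was high, with primary levels of 112 to 240 CPM, and fell to 62.5 CPM (PMC-303) and 17.8 CPM (PMC-306) (log2 fold -2.44 ± 0.44, adjusted p = 0.00366 by limma). Macrophages also express RNase k6. Of 9 macrophage markers 6, the C1q genes and Csf1r among them, reached at most 0.255 CPM in any library, and none of the other 3 (Lyz2, Adgre1 and Cd68) was called. Lyz2, which encodes lysozyme, stood at 0.247 CPM (PMC-303) and, narrowly below all primary cultures (1.18 to 18.0 CPM), at 1.13 CPM (PMC-306) (log2 fold -2.34 ± 0.96, adjusted p = 0.0955 by limma). Lyz2 was lowest in male culture 2, with Rnase6 at 176 CPM, and highest in female culture 2, with Rnase6 at 94.7 CPM. Cd68 stood at 4.73 CPM (PMC-303) and 13.9 CPM (PMC-306), beside 1.48 to 17.8 CPM in the primary cultures. Unlike Lyz2, Cd68 was highest in male culture 2, and it was lowest in female culture 3, with Rnase6 at 30.2 CPM. Adgre1 was highest in female culture 2, at 46.4 CPM, and lowest in male culture 1, with Rnase6 at 186 CPM. The summed level of the 9 was 7.16 CPM (PMC-303) and 441 CPM (PMC-306), of which 426 CPM was Adgre1, and it ranged from 7.44 to 68.8 CPM over the primary cultures. The part of macrophage RNA in the Rnase6 values was not tested. In these bulk samples fewer cells with a given RNA and less of that RNA per cell cannot be told apart.

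**Figure D4:**
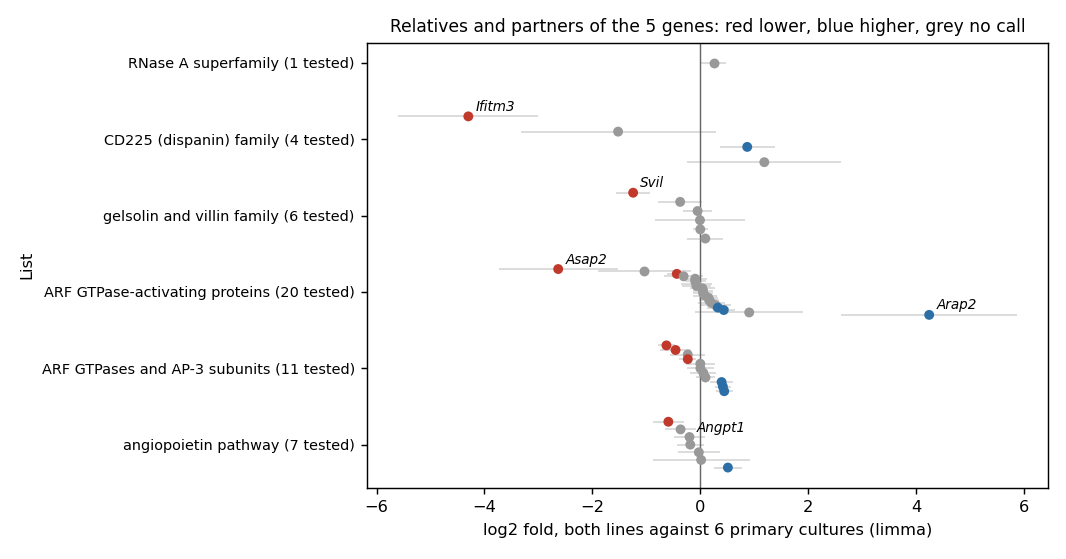
Log2 fold of both lines against the 6 primary cultures by limma for the tested genes of 6 lists of relatives and partners, 1 point per gene with its 95% interval. Red points were called lower, blue points higher and grey points neither. Most points lie close to 0, and Ifitm3 at -4.30 and Arap2 at 4.25 lie farthest out.

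Most genes next to the 5 on the chromosomes were not called in the lines. Of the 30 nearest tested protein-coding genes, 3 on each side of each gene, limma called 7 lower and 3 higher, beside 15.5% and 18.3% of all genes, and 20 had no call. Without PMC-303 12 were called lower. The nearest neighbours of Tmem233, Prkab1 at 14.2 kb and Suds3 at 1008 kb, stood at between 89.98% and 111% of their primary mean in the lines. Those of Rnase6, Gm49342 at 161 kb and Mettl17 at 752 kb, stood at between 103% and 126%. Ctdspl, a phosphatase gene 8.65 kb before Vill, rose from between 27.0 and 53.5 CPM to 77.7 and 54.3 CPM (log2 fold 0.88 ± 0.25, adjusted p = 0.0278 by limma), a call that was lost without PMC-303. Dlec1, 30.9 kb after Vill, was called lower at levels under 1 CPM (log2 fold -1.45 ± 0.33, adjusted p = 0.0104 by limma) and was also lost without PMC-303.

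Around Agap1 and Tek the lines differed from each other. Next to Agap1, Arl4c at 752 kb had 65.0 CPM (PMC-303) and 135 CPM (PMC-306) beside 111 to 225 CPM in the primary cultures, without a call. It was called lower without PMC-306 (log2 fold -1.26 ± 0.31, adjusted p = 0.0234 by limma), and without PMC-303 the log2 fold was -0.21. Cops8 at 693 kb stood at 51.0 and 44.4 CPM, without a call. Col6a3 and Mlph, farther on the same side and named after their values were seen, stood at 95.6% and 110% of their primary mean in PMC-303 and at 7.53% and 4.83% in PMC-306, without a call. The median over the 6 neighbours of Agap1 was 103% in PMC-303 and 46.0% in PMC-306. No gene lay near the PMC-306 median, as the values there ran from 0% (Ugt1a7c, also 0% in PMC-303) to 538% (Hjurp). Next to Tek, Ift74, 42.9 kb before it, stood at 144% of its primary mean in PMC-303 and 44.6% in PMC-306, and Mysm1, 59.1 kb after Tek, stood at 95.03% and 57.8%. The median over the 6 neighbours of Tek was 115% in PMC-303 and 53.9% in PMC-306. Ift74 and Mysm1 were called lower without PMC-303 (Ift74 log2 fold -1.12 ± 0.29, adjusted p = 0.0248, and Mysm1 -0.79 ± 0.12, adjusted p = 0.00312, by limma), a fit in which the single library of PMC-306 is taken to vary like the primary cultures. The farther neighbours Cit, Fggy and Zfp219 were named after their values were seen. Cit, 29.8 kb from Tmem233, rose from between 4.25 and 10.3 CPM to 50.7 and 48.6 CPM (log2 fold 2.82 ± 0.35), Fggy, 682 kb from Tek, fell from between 10.1 and 21.9 CPM to 0.329 and 5.65 CPM (log2 fold -3.37 ± 0.78), and Zfp219, 873 kb from Rnase6, fell from between 35.0 and 40.5 CPM to 21.8 and 11.0 CPM (log2 fold -1.26 ± 0.21), with adjusted p of 0.000590, 0.0112 and 0.00262 by limma.

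**Figure D5:**
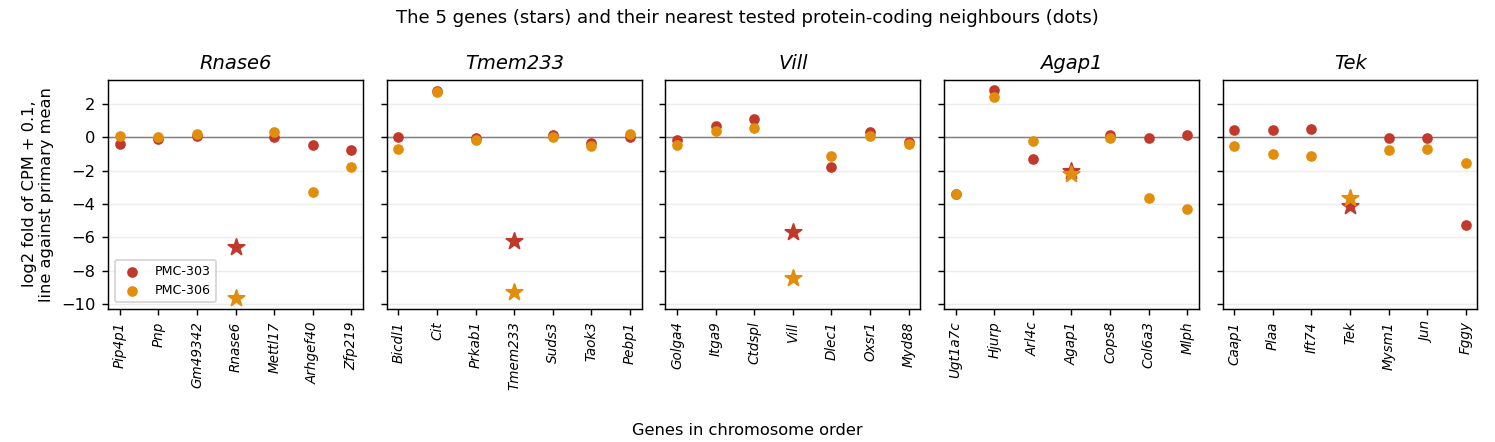
Log2 fold of CPM + 0.1 in PMC-303 (red) and PMC-306 (orange) against the mean of the 6 primary cultures for each of the 5 genes (stars) and its 3 nearest tested protein-coding genes on each side (dots), in chromosome order. The stars of Rnase6, Tmem233 and Vill lie far below all dots beside them, and the value for a count of 0 depends on the 0.1 CPM that was added. The orange dots of 5 genes around Tek and of 4 around Agap1 lie below the red ones. Medians in PMC-306 and PMC-303 are 53.9% and 115% of the primary mean around Tek and 46.0% and 103% around Agap1. Around Agap1 the PMC-306 values run from 0% (Ugt1a7c) to 538% (Hjurp), and no gene lies near their median.

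For each of the 5 genes the most similar patterns over the 8 libraries were sought by Pearson's r of log2(CPM + 0.1) over genes that averaged 1 CPM or more. These values are descriptions, since the 5 genes were chosen for their fall in the 2 lines, which enter each correlation, and all genes share the same libraries. The part of the lines in each r was not tested. Nearest to Rnase6 were Il10ra (r = 0.993), Prrg4 (0.993) and Slc45a4 (0.992). Prrg4 was left at 0.700 CPM in PMC-303 and at 0.0491 CPM in PMC-306 beside 8.86 to 29.3 CPM in the primary cultures, while Il10ra, the receptor for interleukin-10, kept 115 and 73.9 CPM beside 222 to 284 CPM. Nearest to Tmem233 was Mcpt2, a mucosal-type mast cell protease (r = 0.995), with 4.57 and 0.687 CPM in the lines and primary levels of 33.4 to 164 CPM, followed by Cdc42bpg (0.995) and Arhgap5 (0.991). Mcpt2 was also lowest in female culture 1 among the primary cultures, as Tmem233 was.

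Nearest to Agap1 were Vps18, a subunit of the endosomal tethering complexes (r = 0.996), Gstt2 (0.994) and Nacc2 (0.993). Gstt2 was left at 3.09 and 2.46 CPM beside 12.5 to 18.2 CPM. Nearest to Vill were Ascc2 (r = 0.987), Lmbrd1 (0.985) and Zfp952 (0.985), all with small differences, as Ascc2 had 47.8 and 45.5 CPM beside 54.3 to 57.4 CPM. For Tek, B4galt3 (0.950), Havcr2 (0.935) and Alg10b (0.935) had the highest r, which was lower than for the other genes, and B4galt3 differed little between lines (11.6 and 10.8 CPM) and primary cultures (12.96 to 17.7 CPM).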

How the data were processed

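Libraries of 8 PMC cultures were compared, 2 lines and 6 primary cultures, grouped by their labels. According to the methods and the processing notes, the authors prepared stranded total RNA libraries, trimmed reads with Trim Galore 0.6.7, aligned them to GRCm39 with STAR 2.7.9a and estimated counts with Salmon 1.5.2. They deposited estimated counts per gene and transcript, which are not normalized, and TPM per gene, which the pipeline scaled for length and depth. Dates or other text, put in by a spreadsheet program, stood in 3.37% of cells with gene counts, in 3.22% of those with transcript counts and in 20.8% of those with TPM. They were restored, and 381 gene count cells with 2 readings were settled so that each gene equals the sum of its transcripts (largest difference 0 counts). In 9391 TPM cells the point was placed by the counts. No column of values was left without a sample.

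CPM were computed with library sizes scaled by TMM (trimmed mean of M values). With limma 3.58.1 in R 4.3.3, using its trend option, log2(CPM + 0.1) of the lines was tested against that of the 6 primary cultures, and that of female against that of male ones, and p-values were adjusted by Benjamini-Hochberg over all genes tested (a count of about 10 in 2 libraries, or 3 for the sexes, and 15 in total), and a gene was called at an adjusted p under 0.05. Because the cells had been rewritten, the files were not treated as count tables and no count model was fitted. Fold changes on this scale understate those of low genes. The fit was tested on simulated data. The 5 genes, the gene lists and the tests were chosen with earlier results of these data known, and the 5 genes on the very contrast described, so that no p-value is given for them in it. Named beside them are, of each list, the called genes with the 2 largest rises and 2 largest falls, direct partners and nearest relatives, markers, the nearest tested neighbour on each side and the 3 genes with the most similar pattern. Y-linked transcripts were read as a check of PMC-303. Genes were placed with GENCODE release M39 on GRCm39, the build of the authors. The labels call the primary libraries biological replicates, and each line has 1 library, for which intervals are exact Poisson or binomial at 95%. Python 3.11.15 (numpy 2.4.6, scipy 1.17.1 and pandas 2.3.3) served for everything else. The alternatives were other scalings, offsets, filters and sets of primary cultures, and fits that lacked 1 library. The sequence before 1 start site is not reported here.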

Additional observations from a re-analysis of the deposited data

Results flagged for a closer look

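Vill in female culture 3 stood at 98.8 CPM, beside 29.3 CPM in the next highest of the 6 primary cultures. The gap between them was 0.804 of the whole range of the 6 cultures, above Dixon's 95% critical value for 6 values. The 5 genes were each checked in this way, and chance flags about 5% of such groups. Both lines lay below every primary culture for Vill, which leaving out its highest culture cannot change.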

How the results depend on the processing

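Only 1 library exists per line, the lines differ from the primary cultures in medium, and the 5 genes were chosen on this difference. The direction of all 5 in both lines held under every scaling and offset tried. Both lines lay below every primary culture, so that leaving out a library or choosing among the primary cultures could not change it. With an offset of 1 CPM the log2 fold in PMC-306 was -6.85 for Rnase6 and -6.51 for Tmem233 (-9.66 and -9.31 with 0.1 CPM), since a larger offset shrinks the fold of low values. Agap1 was at -1.90 and -1.95 in TPM, beside -2.02 and -2.19. Tek rests on 1 and 2 counts in the lines.

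Library sizes with no further scaling raised the median log2 fold of all genes by 0.107 and the share of higher among called genes from 54.2% to 67.2%, and the cause was not tested. Against female cultures only, limma called 833 genes lower and 1327 higher, and against male cultures only 1241 lower, beside 2255 and 2665, with fewer samples in each fit. Leaving out 1 library at a time, between 1586 and 2094 genes were called lower and between 2123 and 2570 higher. Among partners these ranges were 5 to 11 lower and 5 to 9 higher, and among neighbours 5 to 12 lower and 2 to 4 higher. Small differences without a call turned sign: Capg to 0.061 with unscaled library sizes, and, with 1 library left out, Agap2 (-0.11 to 0.19), Agap3 (-0.045 to 0.15), Cops8 (-0.055 to 0.14) and Ift74 (-1.12 to 0.54), each between the fits without one and without the other line. Rnh1, without PMC-303 Gsn and without PMC-306 Arl4c gained a call (Rnh1 adjusted p = 0.0224 with unscaled library sizes and 0.0482 without male culture 2, Gsn 0.0467, Arl4c 0.0234, by limma). Between the sexes, with 1 culture left out, the log2 difference ranged from -0.67 to 0.58 for Tmem233 (positive without female culture 1) and from -0.71 to 1.21 for Tek (negative without female culture 2, -0.52, and without male culture 3).

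The replicate numbers of the sexes are labels within each sex. Deviations of same-numbered female and male cultures had correlations of 0.405, -0.216 and 0.284 over 13710 genes. Those of differently numbered cultures lay between -0.592 and 0.416. With 3 cultures of each sex these values cannot decide whether the numbers pair the cultures. With the replicate block 5 genes were called between the sexes instead of 6, and 0 of the 5 genes described, as without the block.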
